A study of Ovis aries with 6 samples.

Results

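Xanthine dehydrogenase and the antioxidant enzymes on a sheep expression array were compared between cultures labelled corneal epithelial cells and skin epidermal stem cells. The members were the gene probes whose annotation named XDH, SOD2, GPX3, GSTM3 or MGST1, or contained superoxide dismutase, glutathione peroxidase, glutathione S-transferase, peroxiredoxin or catalase. This gave 10 of the 15008 gene probes, for 7 genes: 2 probes each for XDH, SOD2 and GSTM3, and 1 each for SOD1, GPX1, GPX3 and MGST1. GSTM3 was named there in words, as glutathione transferase M3, and the SOD2 probes as manganous superoxide dismutase. No annotation contained catalase or peroxiredoxin.

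The sheep cells were untreated in both groups as far as the labels say, with no genetic change named and no age given. The 3 epidermal and 3 corneal samples, called cell lines in the design text, were grown in culture, detached with trypsin and pelleted before RNA extraction, and each was hybridised to 1 single-colour array. The labels do not state whether the samples of a group came from separate animals, and the p-values therefore measure only the variation among these arrays, part of which may be technical. All values are normalized log2 signals, the log2 of a spot's processed fluorescence minus the 75th percentile of its array. A level of 0 is that percentile, and a difference of 1 is a doubling. Levels are compared between groups for one probe, not between probes.

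Superoxide is a by-product of respiration and of enzymes that pass electrons to oxygen. Xanthine dehydrogenase, a molybdenum enzyme, turns hypoxanthine into xanthine and xanthine into urate, and its oxidase form makes superoxide and hydrogen peroxide. Superoxide dismutases convert superoxide into hydrogen peroxide, glutathione peroxidases reduce peroxides with glutathione, and glutathione S-transferases attach glutathione to reactive compounds. Skin and cornea both face light and oxygen, and the dismutases, peroxidases and transferases are among their known defences.

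In corneal cells XDH was 34.5-fold and 36.7-fold lower by its 2 probes, GPX3, the secreted peroxidase, was 4.51-fold lower, and GSTM3, a cytosolic mu-class transferase, was 3.74-fold and 3.73-fold lower. SOD2, the mitochondrial manganese enzyme, was 1.86-fold and 1.88-fold higher. MGST1, a membrane-bound transferase, was 1.33-fold higher, GPX1, the intracellular peroxidase, 1.27-fold higher, and SOD1, the cytosolic copper-zinc enzyme, 1.13-fold lower. The superoxide dismutases, glutathione peroxidases and glutathione S-transferases, grouped here by activity, thus each held 1 gene that was higher and 1 that was lower. By limma at an adjusted p under 0.05, 4 member probes were higher and 6 lower, where 59.8% of all 11742 tested probes were called, 26.4% higher and 33.4% lower. A called change of at least 2-fold was found for 5 member probes of 3 genes (XDH, GPX3 and GSTM3), against 7.75% of all tested probes. The members were chosen with earlier results of these data known, so this contrast is a description and not a test. The 2 probes of XDH, and those of GSTM3, share most of their bases and are not separate findings. In all 10 member probes the 3 corneal arrays did not overlap with the 3 epidermal arrays, which was also the case for 67.9% of all tested probes.

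**Figure D1:**
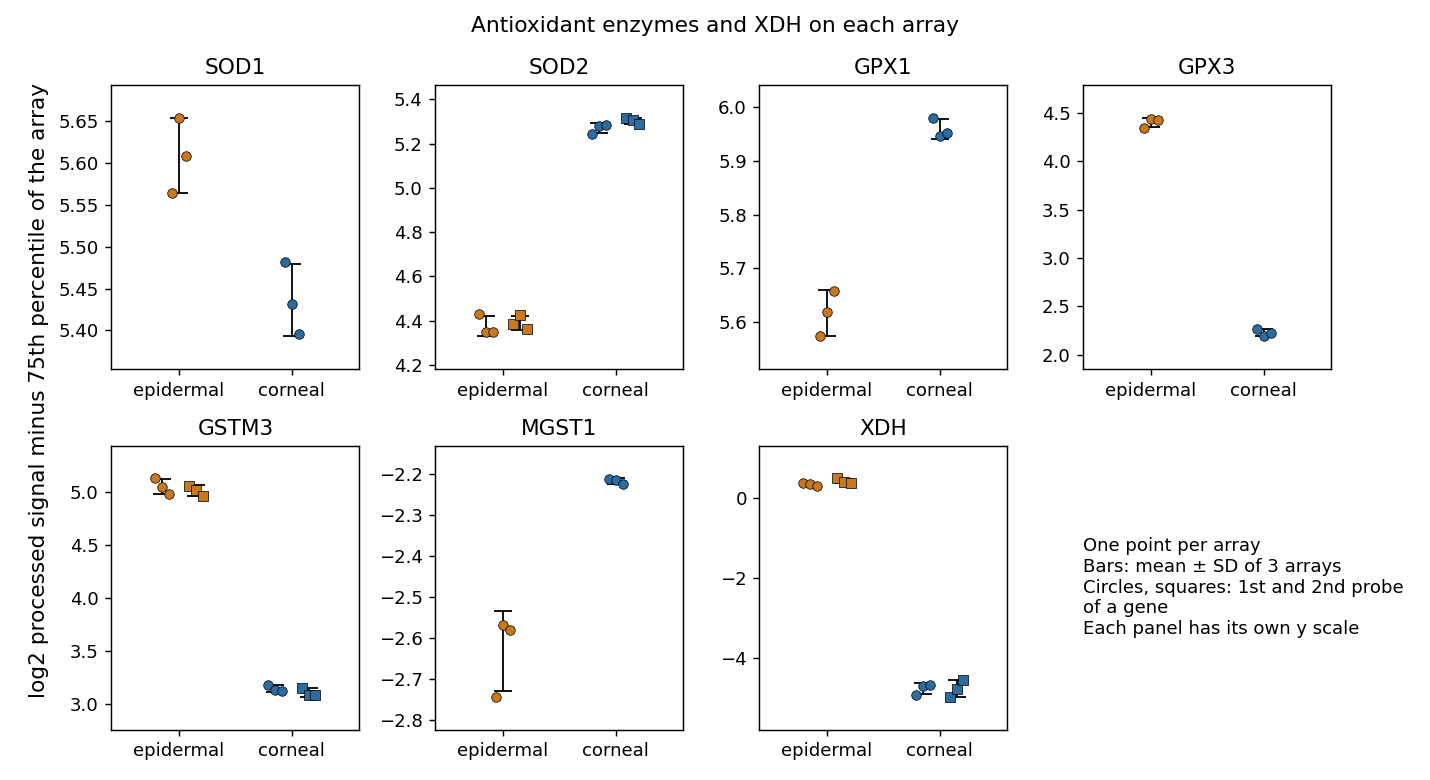
Normalized log2 signal (y axis, each panel on its own scale) of the 7 genes on the 3 epidermal and 3 corneal arrays, with 1 point per array, circles and squares for the 2 probes of a gene, and bars for the mean ± SD of 3 arrays. The 2 groups stand apart in each panel, by about 5 units for XDH and by 0.08 between the nearest arrays for SOD1.

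The probes of XDH, SOD2 and GSTM3 are printed here because 2 probes of a gene count as separate measurements only as far as their sequences differ. Capitals mark the stretch that both probes of a gene share. Each probe is a 60-base oligonucleotide of the array, written 5′ to 3′ as its annotation gives it.
XDH probe 1: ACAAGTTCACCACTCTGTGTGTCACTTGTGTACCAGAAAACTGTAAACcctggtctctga
XDH probe 2: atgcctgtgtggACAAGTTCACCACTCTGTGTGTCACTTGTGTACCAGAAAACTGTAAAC
SOD2 probe 1: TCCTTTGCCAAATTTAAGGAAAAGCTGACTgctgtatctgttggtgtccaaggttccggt
SOD2 probe 2: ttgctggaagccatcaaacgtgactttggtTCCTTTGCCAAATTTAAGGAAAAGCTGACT
GSTM3 probe 1: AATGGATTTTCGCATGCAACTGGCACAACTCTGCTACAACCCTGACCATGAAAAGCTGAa
GSTM3 probe 2: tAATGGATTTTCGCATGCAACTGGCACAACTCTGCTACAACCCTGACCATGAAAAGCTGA
The pairs share 48 bases for XDH, 30 for SOD2 and 59 for GSTM3, so the second probe of a gene repeats the first in part, and for GSTM3 almost wholly. Against probes of other genes, no member probe shared a run longer than 16 bases. The array's annotation places none of these probes on the genome, so no position, exon or UTR is given for them. Whether other mu-class transferase transcripts bind the GSTM3 probes was not tested.

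All 10 member probes were well above background on all 6 arrays and none was saturated. Across the array, between 11785 and 12414 of 15208 gene spots were well above background on the epidermal arrays and between 11091 and 11539 on the corneal arrays. The arrays shared 1 slide and 1 scan. Row 1 of that slide held the epidermal samples and row 2 the corneal ones, and an effect of the row therefore cannot be told apart from that of the cell type. Of 10 markers of basal keratinocytes, 3 had a probe, and their values go against the epidermal label in part. TP63 was not well above background on any array, KRT14 was on 2 epidermal and 0 corneal arrays, and KRT15 on 3 and 1. KRT14 had a mean of −6.60 on the epidermal and −6.64 on the corneal arrays. KRT15 had −6.40 and −6.54 and was not called (limma adjusted p = 0.400). These levels are close to the dimmest spots that count as well above background. Such spots stood at −7.14 to −6.65 on the epidermal and −6.57 to −6.12 on the corneal arrays. The counts of arrays therefore do not by themselves show a difference in level. Of 9 corneal epithelium markers, 3 had a probe, and their values go against the corneal label in part. GJB2 was not well above background on any array, while the level of PAX6, a regulator of eye development, was −2.66 ± 0.05 (SD, n = 3) on the epidermal and −2.36 ± 0.13 on the corneal arrays, higher by limma (adjusted p = 0.0132) in a call lost without scaling of the arrays. ALDH1A1, abundant in corneal epithelium, read 1.64 ± 0.03 on the epidermal and −3.20 ± 0.08 on the corneal arrays. All 10 fibroblast markers with a probe were measured. VIM stood at 8.66 and 8.60 in the 2 groups and the brighter DCN probe at 8.08 and 8.14, and neither was called, nor was COL1A2. COL3A1 was 22.8-fold and FBLN2 7.92-fold lower in corneal cells. POSTN, not well above background on any corneal array, was at least 59.9-fold lower. COL1A1, PDGFRA and LUM were 1.46-fold, 1.43-fold and 1.32-fold lower. FN1 went the other way and was 1.93-fold higher in corneal cells.

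XDH was the member that differed most. The processed fluorescence of XDH probe 1 was 1434, 1230 and 1198 on the epidermal arrays and 29.8, 35.0 and 34.7 on the corneal arrays. XDH probe 2 read 1548, 1266 and 1276 on the epidermal and 28.8, 33.0 and 37.7 on the corneal arrays. Every corneal array was far below every epidermal one. On the normalized log2 scale XDH probe 1 stood at 0.35 ± 0.04 (SD, n = 3) in epidermal and −4.76 ± 0.14 in corneal cells, a change of −5.11 ± 0.07 (SE, limma adjusted p = 3.88e-07). XDH probe 2 went from 0.43 ± 0.06 to −4.77 ± 0.20, a change of −5.20 ± 0.11 (SE, adjusted p = 1.32e-06). The spread between corneal arrays was the widest of any member. The corneal signal of both probes was 2.9-fold above the dimmest spot that counts as well above background there. The size of the fall depended on how background was treated. With a normexp correction and an offset of 50 it was −3.15 and −3.32, and with spots of high local background also left out it was −3.60 and −3.77. The offset by construction makes changes of dim probes smaller. Of the 11742 probes tested, 24 fell more than XDH probe 1 and 21 more than XDH probe 2.

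**Figure D2:**
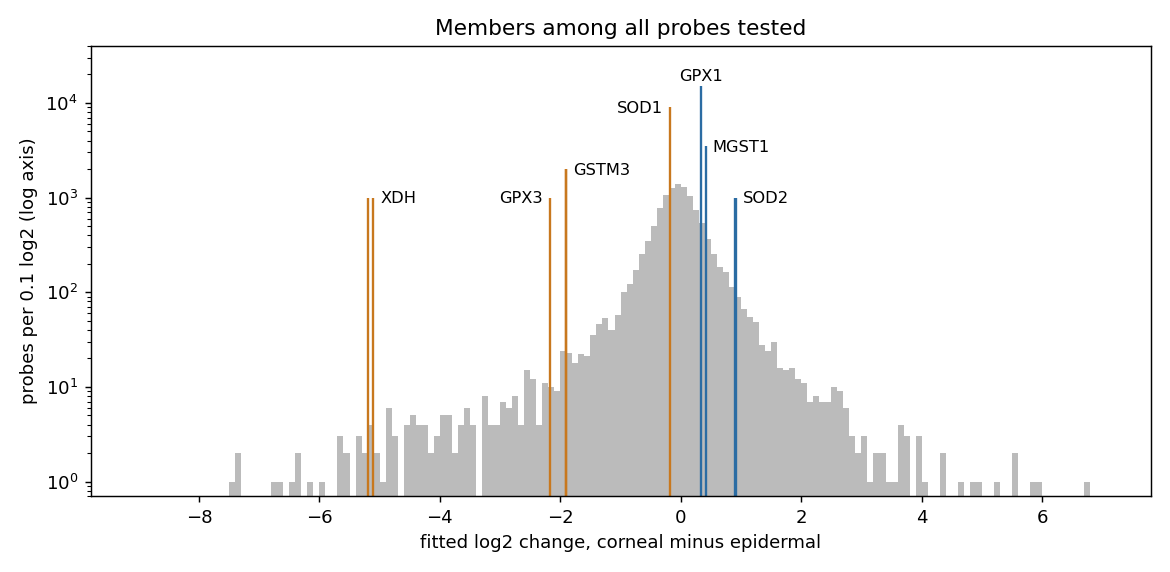
Histogram of the fitted log2 change, corneal minus epidermal, of all 11742 tested probes (y axis, probes per 0.1 log2, log scale), with lines at the member probes, blue for higher and orange for lower in corneal cells. XDH lies near the lower end of the distribution, and SOD1, GPX1 and MGST1 lie within its bulk.

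The 2 superoxide dismutases differed in direction. SOD2 probe 1 read 4.43, 4.35 and 4.35 on the epidermal arrays and 5.24, 5.28 and 5.28 on the corneal arrays, and SOD2 probe 2 read 4.38, 4.42 and 4.36 against 5.32, 5.31 and 5.29. All corneal values lay above all epidermal ones, with a gap of 0.82 for probe 1 and 0.86 for probe 2. The change was 0.90 ± 0.03 (SE, limma adjusted p = 1.19e-05) for probe 1 and 0.91 ± 0.03 (SE, adjusted p = 6.28e-06) for probe 2, and 508 and 495 of the 11742 probes rose more. SOD1 read 5.56, 5.65 and 5.61 on the epidermal arrays and 5.48, 5.43 and 5.40 on the corneal arrays. The groups were separated by 0.08, with an SD of 0.05 within the epidermal and 0.04 within the corneal arrays. The SOD1 change was −0.17 ± 0.04 (SE, limma adjusted p = 0.0117, 95% interval −0.27 to −0.07), and 62.5% of all probes had a larger change in either direction. With quantile normalization the call was lost (−0.09, adjusted p = 0.0683), as it was in the deposited log2 values (−0.07, adjusted p = 0.124), over alternatives whose adjusted p ran from 0.00167 to 0.124.

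The glutathione peroxidases also went opposite ways. Both are selenium enzymes, GPX1 acting inside the cell and GPX3 being secreted. GPX3 read 4.35, 4.44 and 4.43 on the epidermal arrays and 2.27, 2.20 and 2.22 on the corneal arrays. No arrays of the 2 groups came within 2.08 of each other. The change was −2.17 ± 0.04 (SE, limma adjusted p = 8.26e-07), and 172 probes fell more. GPX1 read 5.57, 5.62 and 5.66 on the epidermal and 5.98, 5.95 and 5.95 on the corneal arrays, again with no overlap and a gap of 0.29. The GPX1 change was 0.34 ± 0.03 (SE, limma adjusted p = 0.0004). Without scaling of the arrays it was 0.18 and did not pass (adjusted p = 0.0528, over alternatives from 2.76e-05 to 0.0528).

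Of the glutathione S-transferases, GSTM3 fell and MGST1 rose. GSTM3 probe 1 read 5.12, 5.04 and 4.98 on the epidermal and 3.18, 3.13 and 3.12 on the corneal arrays, and GSTM3 probe 2 read 5.06, 5.02 and 4.96 against 3.16, 3.09 and 3.08. The 2 probes, 1 base apart, differed by at most 0.07 on any array. Both changed by −1.90 (SE 0.05 and 0.04, limma adjusted p = 2.17e-06 and 1.40e-06). MGST1 had a processed fluorescence of 164, 162 and 163 on the epidermal and 195, 195 and 190.1 on the corneal arrays. As normalized log2 values these were −2.74, −2.57 and −2.58 against −2.21, −2.21 and −2.22. The corneal arrays were nearly equal, while epidermal replicate 1 lay below the other two epidermal arrays. The MGST1 change was 0.41 ± 0.05 (SE, limma adjusted p = 0.00128). It was 0.25 without scaling of the arrays and still passed.

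**Figure D3:**
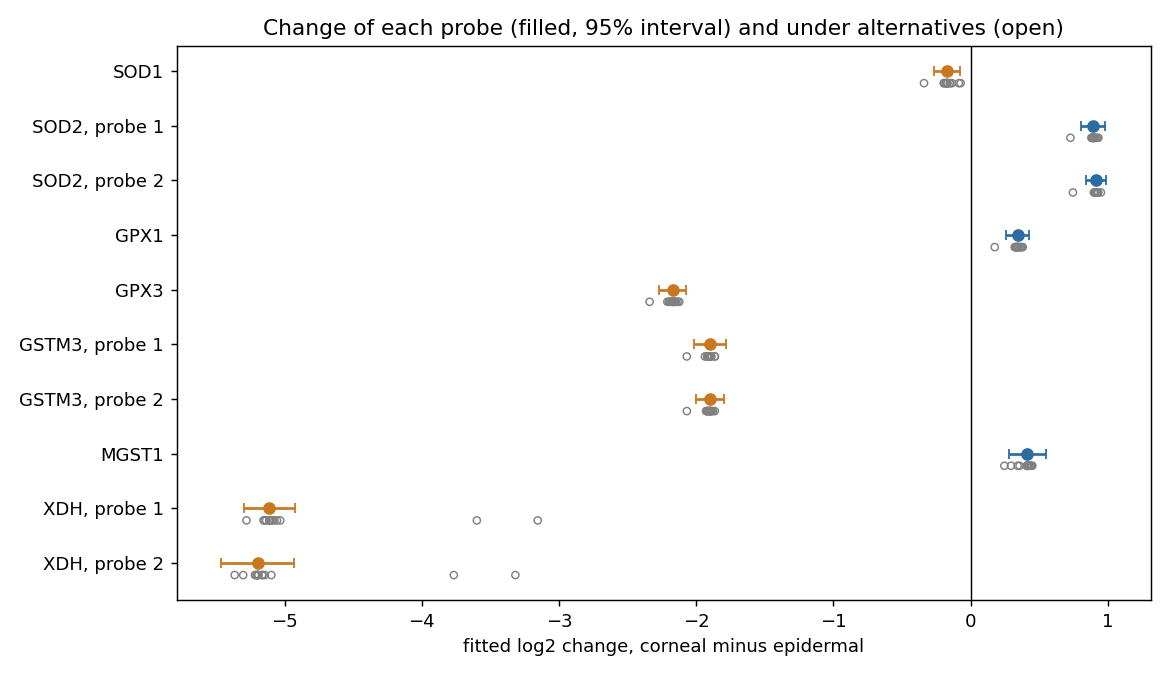
Fitted log2 change, corneal minus epidermal, of each of the 10 member probes (filled points with the 95% interval) and under each alternative processing or with an array left out (open circles, 1 each). No open circle lies on the other side of 0. The widest shift is that of XDH, to −3.15 and −3.32 with normexp and an offset of 50.

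A ratio of 2 probes on the same array does not depend on how arrays are scaled to each other. The ratios of 3 pairs that share an enzyme activity were therefore computed, a choice made after the values were seen. SOD2 (mean of its probes) over SOD1 was −1.16, −1.27 and −1.25 on the epidermal and −0.20, −0.14 and −0.11 on the corneal arrays, as log2. That ratio was 2.11-fold higher in corneal cells. GPX1 over GPX3 went from 1.21 ± 0.03 (SD, n = 3) to 3.73 ± 0.02, which is 5.72-fold. MGST1 over GSTM3 went from −7.66 ± 0.15 to −5.34 ± 0.03, which is 4.97-fold. All 3 ratios separated the groups completely, with an exact two-sided permutation p = 0.1 each, the smallest that 3 against 3 arrays can give. This outcome was fixed by the choice of pairs. In each pair 1 gene was higher and the other lower on every corneal array, so the permutation adds no evidence. The ratios show unequal change within a pair and do not tell which gene moved.

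**Figure D4:**
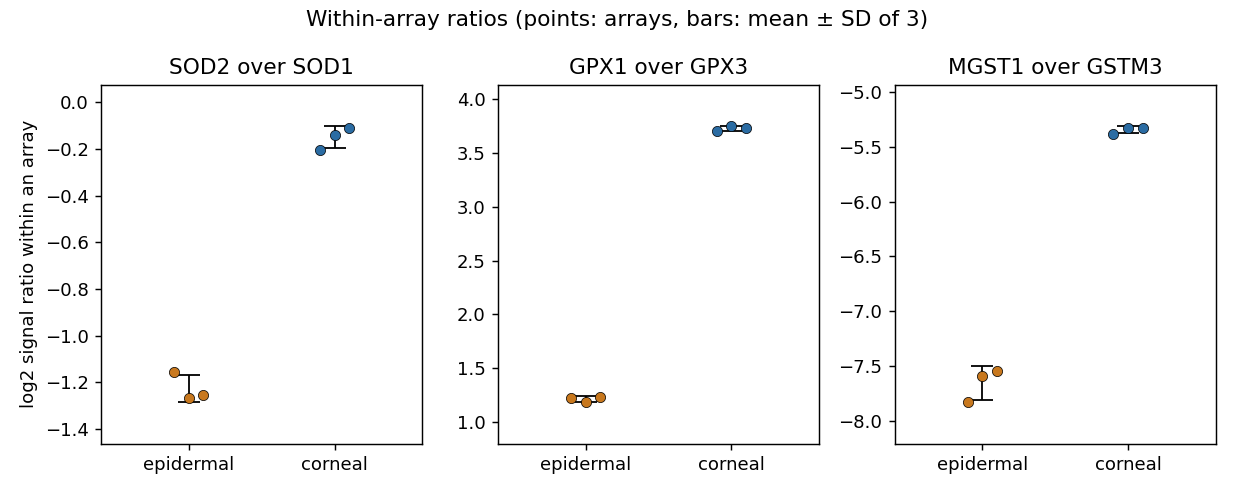
Log2 signal ratio within an array (y axis, each panel on its own scale) for SOD2 over SOD1, GPX1 over GPX3 and MGST1 over GSTM3, with 1 point per array and the mean ± SD of 3 arrays. In each panel the 3 corneal arrays lie above the 3 epidermal arrays.

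Some relatives fell outside the rule because their annotation holds only a symbol, and they are named here after their values were seen. PRDX2, a cytosolic peroxiredoxin, changed from 4.02 ± 0.04 (SD, n = 3) to 4.17 ± 0.05, by 0.16 (limma adjusted p = 0.0143). Both probes the array calls GSTA1-1, an alpha-class transferase, were lower in corneal cells, by −0.998 and −0.972 on the log2 scale, while the brighter probe called GSTA1 did not pass (0.08, adjusted p = 0.209).

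Related pathways were described by 9 lists with 175 genes, of which 48 that are not members had a probe kept for testing. Of these, 13 were higher, 22 lower and 13 not called, with a median change of −0.11, against −0.05 over all tested probes. These counts stand beside the 59.8% called over the array.

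The thioredoxin system, the other main chain of thiol reduction beside glutathione, had 7 measured genes of 19, of which 1 rose and 6 fell (median −0.22). TXNIP, which inhibits thioredoxin, fell from 2.51 ± 0.07 (SD, n = 3) to −3.16 ± 0.02, a change of −5.67 ± 0.04 (SE, limma adjusted p = 1.28e-07), and its other kept probe changed by −4.22. With normexp and an offset of 50 the TXNIP change was −4.49. TXNRD1, the reductase that recharges thioredoxin, changed by −0.62 ± 0.04 and GLRX, a glutaredoxin, by −0.34 ± 0.04. TXN itself changed by −0.16 ± 0.03 (adjusted p = 0.0115), and its call was lost with the replicate number as a block. TXNDC12, a thioredoxin-fold protein of the endoplasmic reticulum, rose by 0.51 ± 0.04.

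Enzymes that make glutathione or supply NADPH for its reduction had 5 measured genes of 21, of which 4 fell (median −0.32). PGD, an enzyme of the pentose phosphate pathway, changed by −0.61 ± 0.03 (SE), IDH1, the cytosolic NADP-dependent isocitrate dehydrogenase, by −0.40 ± 0.03, and GCLM, the modifier subunit of the enzyme that starts glutathione synthesis, by −0.32 ± 0.04. The limma adjusted p-values of these 3 ran from 1.87e-05 for PGD to 0.000858 for GCLM. No probe was named GCLC, GSR, NFE2L2, KEAP1, NQO1 or HMOX1, and these genes were not analysed here. The array's NRF-2 is a name used for more than one factor and was left unnamed.

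Among targets of NRF2, the transcription factor of the antioxidant response, 0 of 6 measured genes rose and 3 fell (median −0.17). AKR1C3, an aldo-keto reductase, fell from −0.16 ± 0.02 (SD, n = 3) to −4.98 ± 0.08, a change of −4.82 that was −2.92 with normexp and an offset of 50. NQO2, a quinone reductase, changed by −0.26 ± 0.03 (SE), and SQSTM1, an autophagy receptor, by −0.24 ± 0.03. The ferritin subunits FTH1 and FTL did not pass (0.11 and −0.10, limma adjusted p = 0.183 and 0.127). Of 4 other detoxification enzymes, 0 rose and 2 fell (median −0.16). ALDH1A1, a retinaldehyde dehydrogenase, changed by −4.84 ± 0.05 (SE, limma adjusted p = 1.71e-07) and ALDH2, the mitochondrial aldehyde dehydrogenase, by −0.33 ± 0.03. With normexp and an offset of 50 the ALDH1A1 change was −3.77.

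Sources of superoxide other than XDH had 10 of 28 genes on the array and 4 measured, of which 2 rose and 0 fell (median 0.17). CYBA, the small membrane subunit that several but not all NADPH oxidases share, rose from 0.60 ± 0.02 (SD, n = 3) to 1.68 ± 0.01, by 1.08 ± 0.03 (SE, limma adjusted p = 2.72e-06), and its other probe by 1.12. The catalytic subunits CYBB and NOX4 had no probe kept for testing. NOX5, another NADPH oxidase, was measured and did not pass (0.10, limma adjusted p = 0.0522). The 3 CYBB probes were well above background on 0, 1 and 1 of the 6 arrays, and the 2 NOX4 probes on 2 and 0. AOX1, a molybdenum enzyme related to XDH, changed by 0.25 ± 0.05 (adjusted p = 0.0109). The AOX1 call was lost without scaling of the arrays and with the replicate number as a block.

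In purine breakdown and salvage, 3 of 24 genes besides XDH had a probe, of which 2 rose and 0 fell (median 0.30). ADA, which turns adenosine into inosine upstream of XDH, changed by 0.30 ± 0.04 (SE, limma adjusted p = 0.000884) by its brighter probe and by 0.50 by the other, which did not pass (adjusted p = 0.0747). ABCG2, a transporter that exports urate, the product of XDH, rose from −2.13 ± 0.01 (SD, n = 3) to −0.88 ± 0.02, by 1.26 ± 0.03 (SE, adjusted p = 1.5e-06). The ADA call was lost without scaling of the arrays. No probe was named PNP or HPRT1. Of 3 measured genes of molybdenum cofactor synthesis and use, 1 rose (AOX1) and 1 fell (median 0.06). The fall was that of MOCS2, a subunit of molybdopterin synthase, at −0.14 ± 0.03 (adjusted p = 0.0116), a call lost with median centring and with the replicate number as a block.

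Of 9 measured genes of metal and selenium handling, 3 rose and 2 fell (median 0.11). SELENOP, the secreted selenoprotein that carries selenium, stood at 1.44 ± 0.01 (SD, n = 3) in epidermal and −5.87 ± 0.19 in corneal cells, where it was well above background on 2 of 3 arrays, a change of −7.31 ± 0.09 (SE, limma adjusted p = 2.71e-07). With normexp and an offset of 50 its change was −4.45. SEPHS1, of the selenophosphate synthetase family, changed by −0.64 ± 0.04, and by −0.39 with normexp and an offset of 50. SELENOW, a small selenoprotein, rose by 0.42 ± 0.04, the iron carrier TF by 2.00 ± 0.04 and the copper chaperone ATOX1 by 0.31 ± 0.03. The ATOX1 call was lost without scaling of the arrays.

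SOD2 is a known target of NF-kB, and 10 genes of that list were measured, of which 4 rose and 4 fell (median −0.13). PTGS2, the inducible cyclooxygenase, rose from 3.10 ± 0.02 (SD, n = 3) to 4.63 ± 0.03, SAA3, an acute-phase protein, changed by 0.87 ± 0.05 (SE, limma adjusted p = 4.28e-05), and RELA, an NF-kB subunit, by 0.27 ± 0.03. The cytokine IL6 changed by −0.76 ± 0.09, the chemokine CXCL8 by −0.30 ± 0.03 and NFKBIA, the NF-kB inhibitor, by −0.16 ± 0.05 (adjusted p = 0.0345). TNF, the fourth fall, went from −1.63 in epidermal to −8.10 in corneal cells, where it was not well above background on any array, and was at least 25.7-fold lower (adjusted p = 3.65e-06 for the fitted change). The bound sets the epidermal mean against the dimmest corneal spots that count as well above background. RELA did not pass without scaling of the arrays. NFKBIA did not pass with median centring, with no filter on dim probes, or without corneal replicate 2 or 3 or epidermal replicate 1 or 2.

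**Figure D5:**
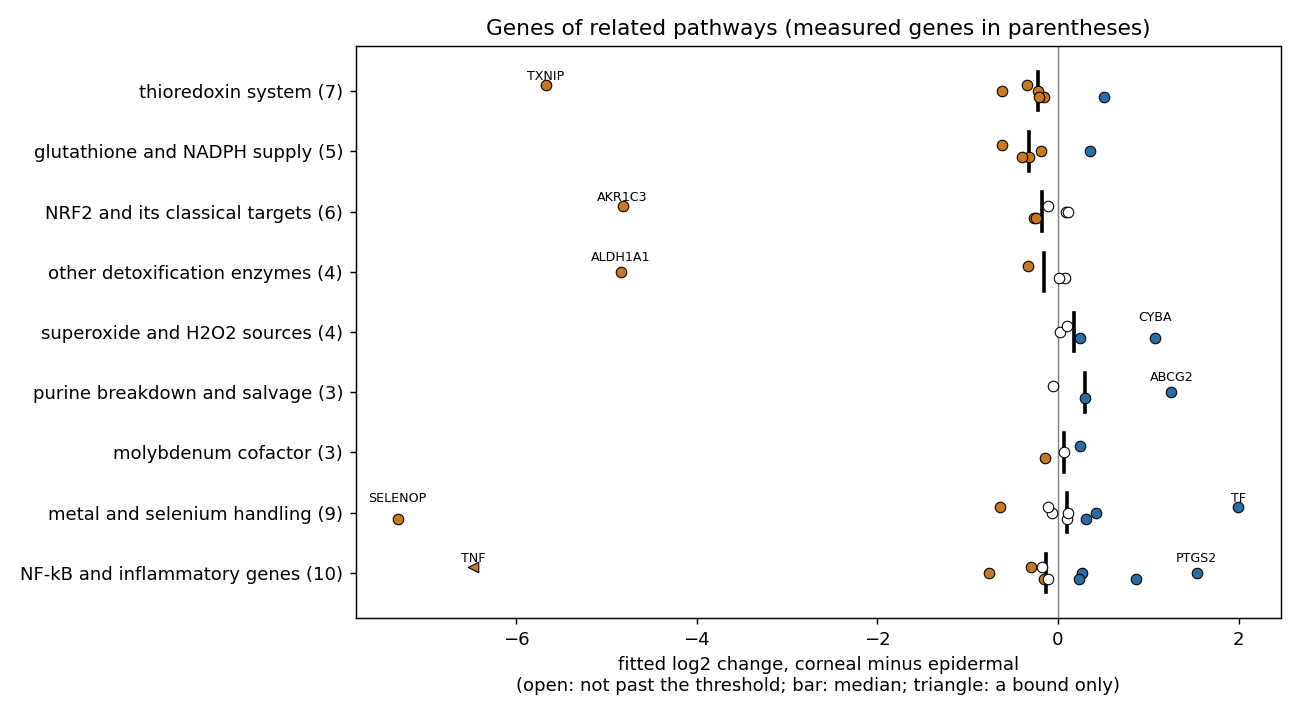
Fitted log2 change, corneal minus epidermal (x axis), of each measured gene of the 9 lists, with blue for higher, orange for lower, open for not past the threshold, a black bar for the median of a list and a triangle for TNF, which has only a bound. Most genes lie near 0, and TXNIP, AKR1C3, ALDH1A1 and SELENOP lie below −4.

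By likeness of profile, the genes nearest to each of the 5 named members were found among 703 other genes with a symbol, as the root mean square difference of 6 centred log2 values. For XDH these were ALDH1A1 (0.20) and AKR1C3 (0.22), and for GPX3 KITLG (0.07) and JAG1 (0.15). For GSTM3 they were HSD11B1 (0.05) and FBLN1 (0.07), for SOD2 FN1 (0.04) and UBE2D2 (0.04), and for MGST1 KIF5B (0.03) and IGFBP3 (0.04). With only 2 groups this measure finds mainly genes of a like change.

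RNA of a whole culture was measured, so fewer cells that express a gene and less RNA per cell cannot be told apart. Markers of cell types other than those in the labels were more often lower than higher in corneal cells. Their counts stand beside the 33.4% of all tested probes that were lower and the 26.4% that were higher in corneal cells. POSTN, VWF, TIE1, FCGR1A and PPARG passed the filter on dim probes through the epidermal arrays alone. Their place in this tally therefore follows in part from the filter. Of 5 measured macrophage and immune markers, 4 were lower in corneal cells and 0 higher, and their summed linear level, in multiples of the 75th percentile, was 23.2 to 24.1 on the epidermal and 14.6 to 15.0 on the corneal arrays. That sum was weighted to the brightest marker, CD14, which was 1.59-fold lower. Of the dimmer markers, FCGR3A was 28.4-fold and FCGR2B 4.06-fold lower, and TYROBP was not called. FCGR3A was well above background on 1 corneal array and FCGR1A on 0. Of 4 adipocyte markers, 2 were lower and 1 higher, with sums of 16.6 to 16.8 and 9.74 to 9.95. The brightest of these, PLIN2, was 1.72-fold lower. PPARG was not well above background on any corneal array, and LEP was 2.71-fold higher. Of 10 fibroblast markers, 6 were lower and 1 higher, with sums of 978 to 1205 and 938 to 960.1. Of 5 measured endothelial markers, 3 were lower and 0 higher, with overlapping sums of 0.454 to 0.536 and 0.495 to 0.521. Of the lower ones, VWF and TIE1 were well above background on 3 epidermal and 0 corneal arrays. They were at least 1.46-fold and 1.12-fold lower. PECAM1, CDH5 and TEK were not well above background on any array. Neither melanocyte marker with a probe was measured. The part of such cells in the changes of XDH, GPX3 and GSTM3 was not tested.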

How the data were processed

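Cy3-labelled RNA of 3 epidermal and 3 corneal samples was hybridised, 1 sample to an array, per the labels' protocols. The submitters' processing notes name Agilent Feature Extraction 10.7. Its processed signal, a linear intensity deposited by the authors, is background-subtracted and detrended per the file headers. A second deposited table gives log2 values, for which the sources used here name no normalization, and it served as an alternative. The precision is limited by the number of arrays.

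Control spots and spots marked as outliers were left out. The log2 processed signals, less the 75th percentile of their array, were averaged per probe. Probes well above background on at least 3 of 6 arrays were kept, 11742 of 15008. Corneal minus epidermal differences were tested by lmFit and eBayes of limma 3.58.1 (R 4.3.3), with Benjamini-Hochberg adjustment over all kept probes and a threshold of 0.05. The fit was also run on simulated data with independent noise and few changed probes, which does not bear on the calls reported here. Pathway genes were represented by their kept probe of highest mean.

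Names came from the array's annotation and sheep RefSeq symbols, with protein descriptions for the listed genes alone, and 13494 probes had no name here. The members and lists were chosen with earlier results of these data known. Named were all member probes, up to 3 called genes per list and direction that were above background in both groups, a fixed set of related genes, and the 2 genes of nearest profile per named member. Alternatives were other scalings, background corrections and filters, the deposited log2 values, 1 probe per gene, the replicate number as a block and leaving out each array. One gene that the naming rule selects is not reported here.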

Additional observations from a re-analysis of the deposited data

How the results depend on the processing

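Over 157 combinations of a member probe and an alternative, 154 kept the direction and the side of the threshold, 3 no longer passed (SOD1 under quantile normalization and in the deposited log2 values, GPX1 without scaling) and 0 reversed. With no scaling between arrays the median change of all probes moved by −0.17. Higher calls fell from 3100 to 1533 and lower calls went from 3923 to 5295, so that 22.5% of calls were higher instead of 44.1%. In that setting 8 related pathway genes were higher instead of 13, and 27 lower instead of 22. Leaving out each array in turn gave 2742 to 3014 higher and 3443 to 3749 lower calls, and kept all 10 member calls. No pairing by replicate number was seen over all probes, where deviations of arrays with the same number correlated at 0.02, −0.03 and 0.04. A pairing that touches few probes would not show in these values. With the replicate number as a block, 2754 probes were higher and 3519 lower, 4 and 6 of them members, and 12 pathway genes were higher and 20 lower. Changes of dim probes, such as XDH in corneal cells, are the least certain in size.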
